A study of Homo sapiens with 12 samples.

Results

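Gene expression after pomalidomide plus dexamethasone was compared with that of vehicle-treated cells in MM.1S cells, a long-used human line from multiple myeloma, on the 3 arrays titled PD and the 3 titled control. These are 6 of the 12 Affymetrix arrays of the series, and each array held RNA of 1 sample. PD cells had received 500 nM pomalidomide and 10 nM dexamethasone for 24 h, and control cells had received vehicle. The other 6 arrays hold the FPD group, which received the same doses together with 1 nM filanesib, an inhibitor of the mitotic kinesin encoded by KIF11, and the F group. The treatment label of the F group gives 1 nM filanesib and 10 nM dexamethasone, while its title gives the letter F alone. All rows of the deposited table with exactly 1 gene symbol were used, which were 16098 of 53617 rows and gave 14884 genes. Values are log2 expression values, so that a difference of 1 is a 2-fold change, and PD minus control is the difference of the 2 group means. A gene is said to have risen or fallen where its limma adjusted p was under 0.05 over all 14884 genes. No array held cells given pomalidomide alone or dexamethasone alone, so the parts of the 2 drugs cannot be told apart. All arrays are of 1 cell line, and the labels do not say that the samples of a group came from separate cultures. The p-values therefore measure the spread between these samples, which may be technical.

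Pomalidomide binds cereblon, the substrate receptor of a CUL4 ubiquitin ligase, and directs the lymphoid transcription factors IKZF1 and IKZF3 to the proteasome. In myeloma cells these factors maintain IRF4, a transcription factor of plasma cells, which in turn maintains MYC. Dexamethasone activates the glucocorticoid receptor, a nuclear receptor that induces genes by binding DNA and represses inflammatory genes. The 2 drugs are given together to patients with multiple myeloma, a cancer of plasma cells.

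Array medians lay between 4.23 and 4.27, and correlations over the whole table were 0.988 to 0.991 among the control arrays, 0.988 to 0.989 among the PD arrays and 0.981 to 0.987 between the groups. The plasma cell markers were at control means of 4.22 to 11.44, and 3 of the 10 measured fell: IRF4, SLAMF7 and SEC11C. SEC11C lost its call without control replicate 1 or 2 and without PD replicate 1, with limma adjusted p from 0.0505 to 0.075. The surface proteoglycan SDC1 stood at 10.19 ± 0.05 in control and 10.16 ± 0.01 in PD, the secretory chaperone partner MZB1 at 11.22 ± 0.07 and 11.15 ± 0.05, and the secretory transcription factor XBP1 at 10.80 ± 0.07 and 10.86 ± 0.05 (mean log2 ± SD, n = 3). Markers of T and NK cells had control means of 4.06 to 6.34, and none of the 12 rose or fell. Among the 10 measured myeloid markers, the control means of those other than CD68 ran from 2.93 to 6.30, and CD68 was the only one that rose.

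Promoters of the groups described below are shown first, because many genes of these groups moved together and these promoters hold short sequence motifs. The sequences run from 250 bases before to 50 bases after the RefSeq start (GRCh38.p14), with capitals for each match to the motif named. The E2F motif was searched as TTTNNCGC, the MYC-type E-box as CACGTG, the core of the interferon-stimulated response element as GAAANNGAA and the C/EBP-ATF motif as TGATGCAA, on both strands. A match is a description of letters and no proof of binding. MCM6 (chr2:135876394-135876693, minus strand), a subunit of the replicative helicase, holds 4 matches to the E2F motif, in 2 overlapping pairs.
MCM6: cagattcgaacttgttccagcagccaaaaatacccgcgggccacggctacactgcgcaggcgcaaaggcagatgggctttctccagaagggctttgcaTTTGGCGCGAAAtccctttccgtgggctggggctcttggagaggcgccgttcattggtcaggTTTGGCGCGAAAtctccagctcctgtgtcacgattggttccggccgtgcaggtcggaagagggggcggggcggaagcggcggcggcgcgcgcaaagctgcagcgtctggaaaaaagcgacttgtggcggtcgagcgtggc
E2F1 (chr20:33686336-33686635, minus strand), which encodes the founding E2F factor, also holds 4 matches.
E2F1: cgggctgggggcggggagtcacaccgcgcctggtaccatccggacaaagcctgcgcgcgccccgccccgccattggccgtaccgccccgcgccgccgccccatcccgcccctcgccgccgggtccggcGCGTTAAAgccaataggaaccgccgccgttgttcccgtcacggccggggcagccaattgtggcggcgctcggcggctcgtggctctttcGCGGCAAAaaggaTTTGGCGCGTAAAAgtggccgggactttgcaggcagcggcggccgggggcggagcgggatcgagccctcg
NOP2 (chr12:6568242-6568541, minus strand), a ribosomal RNA methyltransferase of the nucleolus, holds 1 E-box 36 bases after the start.
NOP2: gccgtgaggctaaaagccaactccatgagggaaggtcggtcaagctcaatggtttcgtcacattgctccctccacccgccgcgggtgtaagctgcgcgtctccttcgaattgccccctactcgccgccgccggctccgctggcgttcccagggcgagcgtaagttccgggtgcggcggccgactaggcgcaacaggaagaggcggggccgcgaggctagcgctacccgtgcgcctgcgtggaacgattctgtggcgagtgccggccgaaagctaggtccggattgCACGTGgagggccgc
IARS1 (chr9:92293648-92293947, minus strand), the isoleucyl-tRNA synthetase, holds 1 C/EBP-ATF match 13 bases before the start.
IARS1: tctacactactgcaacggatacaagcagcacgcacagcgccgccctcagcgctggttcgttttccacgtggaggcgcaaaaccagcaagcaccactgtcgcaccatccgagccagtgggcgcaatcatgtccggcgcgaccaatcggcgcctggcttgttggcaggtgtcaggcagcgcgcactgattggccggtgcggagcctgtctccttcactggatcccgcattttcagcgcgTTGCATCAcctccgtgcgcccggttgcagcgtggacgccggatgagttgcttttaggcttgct
IFIT3 (chr10:89327747-89328046, plus strand), an interferon-induced RNA-binding protein family member, holds 2 matches to the interferon-stimulated core.
IFIT3: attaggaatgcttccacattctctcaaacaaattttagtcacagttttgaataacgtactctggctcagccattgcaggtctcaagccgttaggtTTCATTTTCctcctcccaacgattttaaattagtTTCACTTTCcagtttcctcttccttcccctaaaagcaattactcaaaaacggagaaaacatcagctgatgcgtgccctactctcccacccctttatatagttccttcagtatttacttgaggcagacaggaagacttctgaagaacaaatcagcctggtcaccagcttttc
ISG20 (chr15:88638766-88639065, plus strand), an interferon-induced exonuclease, holds 1 such match 69 bases before the start.
ISG20: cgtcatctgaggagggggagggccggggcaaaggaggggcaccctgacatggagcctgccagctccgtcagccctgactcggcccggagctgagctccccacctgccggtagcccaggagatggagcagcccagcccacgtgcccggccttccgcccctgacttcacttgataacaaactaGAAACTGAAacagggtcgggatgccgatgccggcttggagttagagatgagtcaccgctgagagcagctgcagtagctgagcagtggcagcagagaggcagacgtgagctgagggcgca

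A promoter sequence was found for 10749 of the 14884 genes. The E2F motif was present in 9.01% of these promoters, in 8.35% of the promoters of genes that rose and in 13.8% of those that fell. For the E-box these shares were 9.02%, 9.09% and 14.4%. The interferon-stimulated core was found in 6.55% of all promoters, in 7.74% of those that rose and in 4.91% of those that fell. A palindromic glucocorticoid response element with up to 1 mismatch was present in 6.88% of all promoters, in 5.65% of the genes that rose and in 5.1% of those that fell. With no mismatch allowed these shares were 0.214%, 0.246% and 0%. The promoter motifs of single gene groups are given with each group. E2F and interferon-core matches overlapped in 17 promoters, and an E-box overlapped a C/EBP-ATF match in 3.

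After 24 h of pomalidomide plus dexamethasone, 1018 genes had risen and 1284 had fallen, which were 6.84% and 8.63% of the genes tested and 15.5% together. Most changes were small: the median size was 0.51 among the genes that rose and 0.48 among those that fell, and 63.7% and 68.7% of them were under 1.5-fold. At least 2-fold changes were seen for 92 genes that rose and 51 that fell, at least 3-fold for 20 and 4, and at least 4-fold for 8 and 2. The median standard error of a difference was 0.11. In these samples less RNA of a gene per cell and fewer cells that express it cannot be told apart. Genes that fell were the more abundant, with a median control level of 7.74 against 6.39 for those that rose. In the lowest of 5 equal bins of mean level 1.38% of genes were called, and in the highest 32.4%. In that highest bin, which starts at a mean of 7.51, 325 of 2977 genes rose and 639 fell. Lists of abundant genes are to be read beside these counts as well as the shares of all genes. The split between the directions depended on the scaling. With the arrays quantile normalized once more 1157 rose and 1081 fell, and with each array centred on its median 865 rose and 1458 fell.

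**Figure D1:**
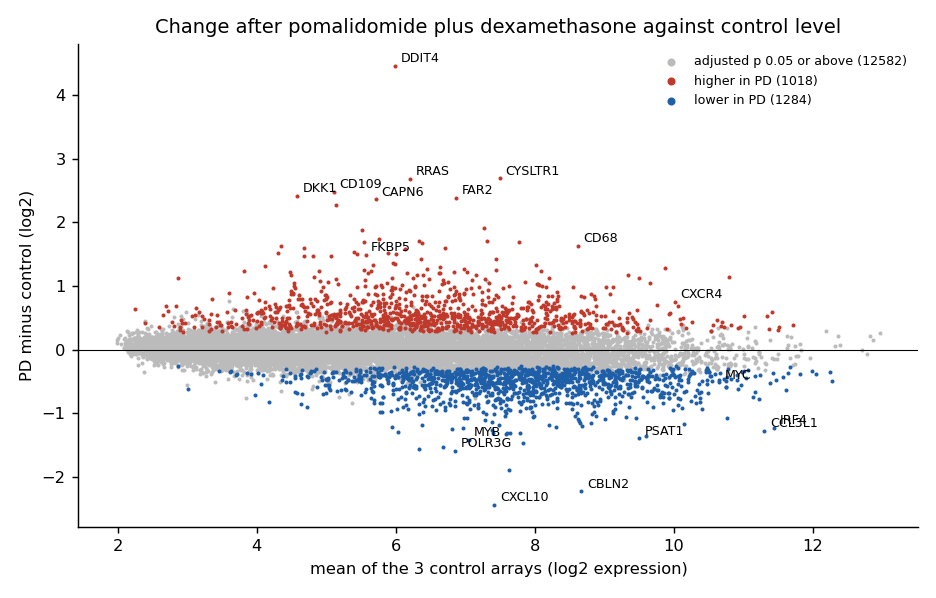
Difference between the means of the 3 PD and the 3 control arrays (log2, vertical axis) against the mean of the control arrays (log2, horizontal axis), with 1 point per gene. Red points are the 1018 genes that rose, blue points the 1284 that fell and grey points the genes that did not pass the test. DDIT4 stands alone at the top with 4.46, and CXCL10 lies lowest with -2.44.

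The glucocorticoid receptor target genes were led by DDIT4, which encodes an inhibitor of mTOR signalling. DDIT4 was at 5.90, 6.06 and 6.02 on the control arrays and at 10.44, 10.46 and 10.45 on the PD arrays, a 22-fold rise (difference 4.46 ± 0.09 SE, limma adjusted p = 8.74e-15). Of 35 measured members 14 rose and 1 fell, with a median difference of 0.19, against 6.84% risen, 8.63% fallen and a median of -0.0027 over all genes tested. PIK3IP1, which encodes an inhibitor of PI3 kinase, went from 5.41, 5.78 and 5.43 to 7.45, 6.95 and 7.32, a 3.24-fold rise. TXNIP, an arrestin-like protein that lowers glucose uptake, was already abundant in control cells at 9.13, 9.53 and 9.36 and reached 10.57, 10.43 and 10.56. The transcription factor KLF9 moved from 4.85, 4.90 and 4.70 to 6.15, 5.71 and 6.01, and the receptor co-chaperone FKBP5 from 5.54, 5.60 and 5.56 to 7.18, 7.04 and 6.95. In each of these 5 genes every PD array lay above every control array. Groups that do not overlap, in either direction, were seen for 29% of all genes tested. They were seen for 97.7% of the genes that rose and 98.1% of those that fell. The 30 highest and 30 lowest genes were named only from genes without overlap, so for them this is no added support. The Golgi-associated GTPase activator SMAP2 (difference 1.04) and the membrane scaffold STOM (0.78) also rose, and the chemokine receptor CXCR4 rose by 0.75 from a control mean of 10.02. SGK1, a kinase often induced by glucocorticoids, had a difference of -0.29 (limma adjusted p = 0.0776). SGK1 passed the test in 2 of 16 alternatives, 1 of them without control replicate 3 (limma adjusted p = 0.043). DUSP1, a phosphatase of MAP kinases, had a difference of 0.12 (limma adjusted p = 0.564). Of the 34 promoters of this list, 3 held a palindromic glucocorticoid response element with up to 1 mismatch (8.82%), against 6.88% of all promoters. Only 300 bases around the start were searched, so elements farther away were not seen. The interferon-stimulated core was found in 9 of the 34 (26.5%), against 6.55% of all promoters. Of these 9 genes 4 rose, and of the 25 without a match 9 rose and 1 fell.

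**Figure D2:**
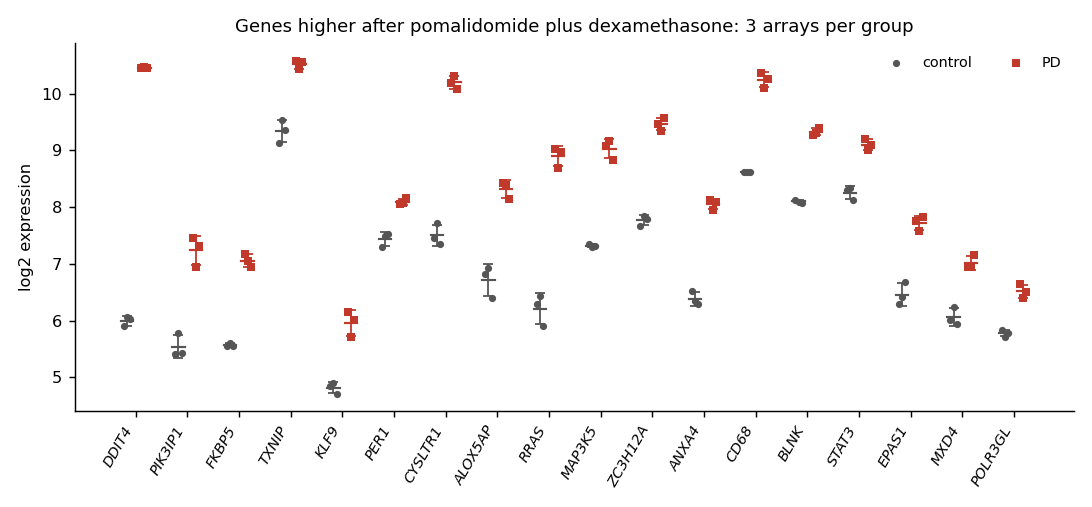
Log2 expression of 18 genes that rose, on the 3 control arrays (grey circles) and the 3 PD arrays (red squares), with a short line at each group mean and bars of 1 SD. The groups do not overlap in any of the 18 genes, as in 97.7% of the genes that rose. DDIT4 shows the widest gap, from a mean of 5.99 to 10.45.

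DDIT4, PIK3IP1 and TXNIP are also members of the list for PI3 kinase, AKT and mTOR signalling, the pathway by which growth factors and nutrients drive protein synthesis. In this list of 37 measured genes, 10 rose (27.0%) and 3 fell (8.11%), against 6.84% and 8.63% of all genes (median difference 0.16). Genes that rose numbered 5 when every row was tested and 6 without control replicate 1, without PD replicate 1 or without PD replicate 3. The insulin receptor INSR rose by 0.80. DEPDC5, a subunit of a complex that restrains mTOR when amino acids are scarce, fell by 0.58, and the AKT phosphatase PHLPP2 fell by 0.57. GRB14, an adaptor that binds and restrains the insulin receptor, belongs to no list here and went from 6.06, 6.22 and 6.13 to 7.70, 7.87 and 7.57 (difference 1.58). DEPTOR, an mTOR inhibitor that is abundant in many myelomas, had control values of 9.77, 9.88 and 9.93 and PD values of 9.96, 9.86 and 10.07 (difference 0.10, limma adjusted p = 0.553).

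Among interferon-stimulated genes many rose. The list counted 16 risen and 2 fallen genes among 38 measured, at a median of 0.23. ISG20 went from 5.90, 5.90 and 6.07 to 7.31, 7.33 and 7.33, and IFIT3 from 3.61, 4.20 and 3.64 to 4.98, 5.19 and 5.00. DTX3L, a ubiquitin ligase of the DNA damage and antiviral response, went from 6.49, 6.78 and 6.61 to 8.20, 7.65 and 7.65, a 2.3-fold rise. The PD arrays lay above the control arrays in all 3, as in 97.7% of the genes that rose. The ligase HERC6 (difference 1.05), the nuclear body protein SP100 (0.74), the viral RNA sensor RIGI (0.73) and the antiviral GTPase MX2 (0.66) also rose. HERC5, the ligase that attaches ISG15, fell by 0.52, and ISG15 itself had a difference of 0.036 (limma adjusted p = 0.894). The guanylate-binding protein GBP4, outside the list, went from 4.57, 4.92 and 4.57 to 6.21, 5.94 and 6.33. Among the promoters of the list 20 of 30 held the interferon-stimulated core (66.7%). Of these 20 genes 6 rose and 2 fell, and of the 10 without a match 6 rose. The cytokine signalling genes of the JAK and STAT list included STAT3, which rose from 8.31, 8.34 and 8.12 to 9.20, 9.01 and 9.10, and the kinase JAK2 (0.80) and the interferon gamma receptor chain IFNGR1 (0.65) rose too. PIM1, a survival kinase induced by STAT factors, fell by 0.85. Of the 30 measured genes of this list, 4 rose (13.3%) and 3 fell (10%), against 6.84% and 8.63% of all genes. The median difference was 0.041, and the sign of the median changed between settings.

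CXCL10, a chemokine induced by interferon that attracts T cells, moved the other way. It fell from 7.39, 7.84 and 7.04 to 5.23, 5.07 and 4.64, 5.43-fold lower, which was the largest fall of all 14884 genes. CCL3L1 and CCL3, macrophage inflammatory chemokines that promote bone resorption in myeloma, fell from 11.35, 11.45 and 11.12 to 10.18, 9.87 and 10.05 and from 8.88, 8.83 and 8.72 to 7.68, 7.40 and 7.88. These 2 genes are near-identical copies, and their probes may share signal. Among receptors, CX3CR1 (0.88) and CCR2 (0.76) rose with CXCR4. Among 41 measured genes, 3 rose and 3 fell (7.32% each), near the 6.84% and 8.63% of all genes. The median difference was 0.0092, and the sign of the median changed between settings. Without PD replicate 3 the number that rose was 5. The regulators of NF-kB, the inflammatory transcription factor that many of these chemokines depend on, were mixed. Here 4 of 21 measured genes rose (19.0%) and 6 fell (28.6%), against 6.84% and 8.63% of all genes (median difference -0.093). The count of genes that fell became 2 without control replicate 2. The adaptor TRAF5 (-0.70) and the NF-kB-induced PLEK (-0.60) fell, while the co-activator BCL3 rose by 0.50. ZC3H12A, an RNase that degrades inflammatory messenger RNAs, rose from 7.67, 7.85 and 7.79 to 9.47, 9.35 and 9.57, a 3.23-fold change.

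Among the transcription factors of plasma and lymphoid cells, several known regulators of myeloma cells fell. IRF4 went from 11.39, 11.50 and 11.44 to 10.28, 10.07 and 10.29, 2.35-fold lower (limma adjusted p = 2.2e-07). MYB, a factor of proliferating haematopoietic cells, went from 6.96, 7.11 and 7.07 to 5.49, 5.78 and 5.61, and the lymphoid factor ETS1 from 7.44, 7.67 and 7.66 to 6.29, 6.31 and 6.17. The fall of MYC was smaller, from 10.61, 10.70 and 10.65 to 10.06, 10.17 and 10.18 (difference -0.52 ± 0.09 SE). In all 4 genes every PD array lay below every control array, as in 98.1% of the genes that fell. MXD4, which competes with MYC for its partner MAX, rose by 0.96, and the stress-induced factor KLF6 by 0.69. CCND2, a cyclin of early G1 that is overexpressed in many myelomas, fell from 10.30, 10.34 and 10.53 to 9.73, 9.68 and 9.46 (difference -0.76, and -0.45 when its rows are averaged). Of the 50 measured members 5 rose (10%) and 9 fell (18%), against 6.84% and 8.63% of all genes. The median difference was -0.041, and the sign of the median changed between settings. The number that rose was 3 in the 6 compared arrays alone, with each array centred on its median, when every row was tested, without control replicate 1 or without PD replicate 1.

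The list of the cereblon ligase and its drug-induced substrates held small differences. Of 15 measured members 6 rose and 0 fell, with a median difference of 0.28. Genes that rose numbered 3 in the 6 compared arrays alone, with each array centred on its median, without control replicate 1 or without control replicate 2, 0 when every row was tested, 2 without control replicate 3 or without PD replicate 3 and 1 without PD replicate 1. CRBN, the receptor of pomalidomide, was at 7.88, 7.84 and 7.82 in control and 8.19, 8.09 and 8.23 in PD, and IKZF1 at 8.28, 8.37 and 8.52 and 8.87, 8.63 and 8.67. IKZF3 was at 4.33, 3.999 and 4.20 and 4.40, 4.32 and 5.05, so that its groups overlapped (limma adjusted p = 0.196). These values lie near the array medians of 4.23 to 4.27 and cannot be told from background, so they give no reading of IKZF3. CRBN lost its call when every row was tested, without control replicate 2 or 3 and without PD replicate 1 or 3, with limma adjusted p from 0.0562 to 0.0865. IKZF1 lost its call in the 6 compared arrays alone, with each array centred on its median, when every row was tested, without control replicate 1 or 2 and without PD replicate 1, with limma adjusted p from 0.0579 to 0.122. Protein levels, at which these substrates are degraded, were not measured.

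**Figure D3:**
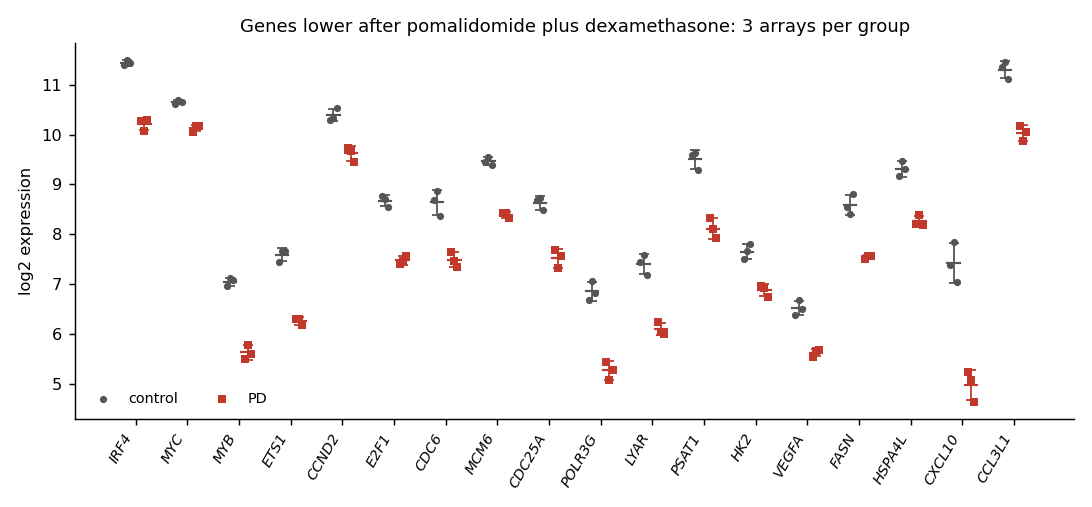
Log2 expression of 18 genes that fell, on the 3 control arrays (grey circles) and the 3 PD arrays (red squares), with a short line at each group mean and bars of 1 SD. The groups do not overlap in any of the 18 genes, as in 98.1% of the genes that fell. CXCL10 shows the widest gap, from a mean of 7.42 to 4.98.

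Of the 57 DNA replication genes listed, 28 were measured, and these fell almost as a whole. In this list of 28 measured genes, 0 rose and 25 fell (median difference -0.61). MCM6 went from 9.46, 9.55 and 9.39 to 8.43, 8.43 and 8.32, 2.1-fold lower. The origin licensing factor CDC6 went from 8.69, 8.87 and 8.37 to 7.64, 7.47 and 7.35, and the replication fork protector TIPIN from 7.57, 7.83 and 7.41 to 6.24, 6.43 and 6.21. All 3 were lower on every PD array than on any control array, as were 98.1% of the genes that fell. The other helicase subunits MCM2 (-0.71), MCM3 (-0.68), MCM4 (-0.78), MCM5 (-0.60) and MCM7 (-0.68) fell by similar amounts, with GINS2 at -0.95, the polymerase clamp PCNA at -0.70 and the fork factor MCM10 at -0.88. The 3 members that did not pass the test were ASF1B (-0.21), RECQL4 (-0.27) and TICRR (-0.31), of which TICRR passed it without control replicate 1 (limma adjusted p = 0.0184). Of the 23 promoters of this list, 13 held the E2F motif shown above for MCM6 (56.5%). All 13 of those genes fell (median -0.68), as did 8 of the 10 without a match (median -0.54).

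Genes that control entry into S phase fell too. The list counted 1 risen and 14 fallen genes among 24 measured, at a median of -0.46. E2F1 went from 8.77, 8.71 and 8.55 to 7.39, 7.46 and 7.57, and CDC25A, the phosphatase that activates CDK2, from 8.69, 8.74 and 8.48 to 7.68, 7.31 and 7.56. CCNE1 (-0.82) and CCNE2 (-0.73), the E-type cyclins that drive the transition, fell as well. The motif was found in 6 of 19 promoters of this list (31.6%). The enzymes that make nucleotides for DNA and RNA were also lower. Of its 21 measured genes, 1 rose, 12 fell and the median difference was -0.35. CTPS1, the CTP synthase of dividing lymphocytes, fell from 8.46, 8.63 and 8.54 to 7.63, 7.80 and 7.41. PPAT, the first committed enzyme of purine synthesis, fell by 0.84, and PRPS1, which makes the activated ribose, by 0.77. RPIA, which supplies ribose phosphate to it, lies outside the list and fell from 7.35, 7.56 and 7.23 to 6.45, 6.26 and 6.02.

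Genes of recombination and the Fanconi pathway, which repair replication forks, fell in part. Among 23 measured genes, 0 rose and 12 fell, and the median difference was -0.27. The count of genes that fell became 5 when every row was tested, 7 without control replicate 2 or without control replicate 3 and 6 without PD replicate 1 or without PD replicate 3. XRCC2, a recombination factor, went from 7.79, 8.005 and 8.23 to 7.25, 7.12 and 7.04, and the exonuclease EXO1 fell by 0.67. Few genes of mitosis were called. Here 2 of 46 measured genes rose and 2 fell (4.35% each), against 6.84% and 8.63% of all genes. The median difference was -0.00082, and the sign of the median changed between settings. The median control level of this list was 8.49, in the range of the highest bin of mean level, where 325 of 2977 genes rose and 639 fell. The 2 that rose were CCNB2 (0.52), a cyclin of mitotic entry, and CDC20 (0.29), and the 2 that fell were MAD2L1 (-0.35) and SMC2 (-0.40). CDC20 lost its call in the 6 compared arrays alone, with each array centred on its median, when every row was tested, with the replicate block, with array weights, without control replicate 1, 2 or 3 and without PD replicate 1, 2 or 3, with limma adjusted p from 0.0506 to 0.155. MAD2L1 lost its call after quantile normalization once more, when every row was tested, without control replicate 1 or 2 and without PD replicate 1 or 3, with limma adjusted p from 0.0544 to 0.117. SMC2 lost its call when every row was tested, without control replicate 2 or 3 and without PD replicate 3, with limma adjusted p from 0.062 to 0.0817. KIF11, the target of filanesib, was at 10.20, 10.25 and 10.18 in control and 10.21, 10.09 and 9.99 in PD (difference -0.11, limma adjusted p = 0.555).

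**Figure D4:**
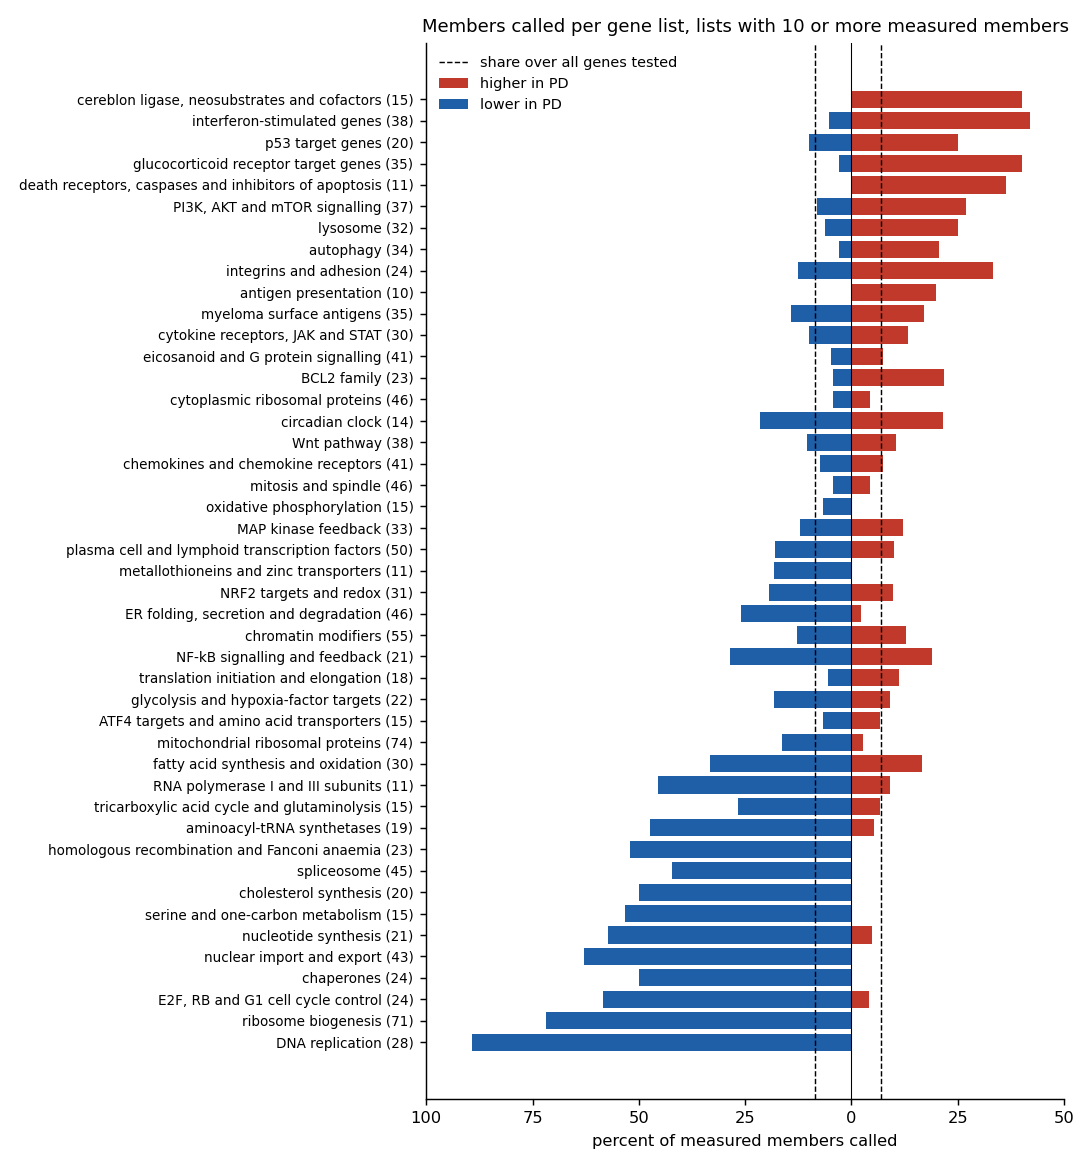
Percent of the measured members of each gene list that rose (red, to the right) and fell (blue, to the left) in PD against control, for the lists with 10 or more measured members, whose numbers stand in brackets, ordered by the median difference. Dashed lines mark the 6.84% of all genes that rose and the 8.63% that fell, and DNA replication with 89.3% and ribosome biogenesis with 71.8% of members fallen lie at the bottom.

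Ribosome biogenesis, the nucleolar assembly of ribosomal RNA with ribosomal proteins that MYC is known to drive, was the other large group that fell. The median difference of the 71 measured members was -0.57, with 0 risen and 51 fallen (71.8%), against 8.63% fallen of all genes. Their median control level was 8.35, in the range of the highest bin of mean level, where 639 of 2977 genes fell. LYAR, a nucleolar regulator of ribosomal RNA processing, went from 7.44, 7.58 and 7.19 to 6.24, 6.05 and 6.001, 2.47-fold lower. RRS1 (-0.99) and RRP12 (-0.97), assembly factors of the large and small subunit, came next, and NOP2 went from 9.69, 9.72 and 9.69 to 8.66, 9.003 and 8.73. An E-box lay in 21 of the 59 promoters of the list (35.6%). Of these 21 genes 19 fell, and of the 38 without one 23 fell. Few of the cytoplasmic ribosomal proteins themselves were called. Of 46 measured members 2 rose and 2 fell (4.35% each), against 6.84% and 8.63% of all genes. The median difference was 0.021, and the sign of the median changed between settings. The number that rose was 5 among genes above the median mean and with a trended variance prior and 4 without control replicate 1. RPL32 fell by 0.93 and RPS19 rose by 0.47. Ribosomal proteins have many pseudogenes, whose transcripts can share probes. Of the mitochondrial ribosomal proteins, MRPS25 fell by 0.77 and MRPL17 by 0.52. The median control level of this list was 7.63, also in the range of that highest bin. In this list of 74 measured genes, 2 rose (2.7%) and 12 fell (16.2%), against 6.84% and 8.63% of all genes (median difference -0.17). Genes that fell numbered 6 in the 6 compared arrays alone, when every row was tested, without control replicate 1 or without PD replicate 2, 5 after quantile normalization once more or without control replicate 2 and 7 without PD replicate 1.

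RNA polymerase III, which makes transfer RNAs and 5S ribosomal RNA, showed opposite changes in a pair of alternative subunits. POLR3G, the form of proliferating and stem cells, fell from 6.68, 7.06 and 6.83 to 5.44, 5.07 and 5.28, 3.01-fold lower (difference -1.59 ± 0.13 SE). POLR3GL, the form of most adult tissues, rose from 5.83, 5.72 and 5.78 to 6.64, 6.40 and 6.49. The groups did not overlap for either gene, as for 97.7% of the genes that rose and 98.1% of those that fell. POLR3B, a core subunit, fell by 0.75, and RRN3, which recruits RNA polymerase I to ribosomal DNA, by 0.68. The list counted 1 risen and 5 fallen genes among 11 measured, at a median of -0.19.

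Genes that load transfer RNAs with amino acids fell in part. Of its 19 measured genes, 1 rose, 9 fell and the median difference was -0.27. YARS1, the tyrosyl enzyme, went from 7.87, 7.93 and 7.91 to 7.39, 7.15 and 7.27, and VARS1 (-0.57) and IARS1 (-0.54) also fell. The exception was TARS3, a second threonyl enzyme, which rose from 6.49, 6.31 and 6.31 to 7.05, 7.13 and 6.88. The C/EBP-ATF motif, present in 0.651% of all promoters, was found in 6 of 15 promoters of this list (40%), and 4 of those 6 genes fell against 2 of the 9 without it. Enzymes of serine and one-carbon metabolism, which supply glycine and methyl groups, fell too. Among 15 measured genes, 0 rose and 8 fell, and the median difference was -0.34. The count of genes that fell became 5 without control replicate 2. PSAT1, the transaminase of serine synthesis, fell from 9.59, 9.64 and 9.29 to 8.33, 8.10 and 7.92. The mitochondrial folate enzyme MTHFD1L fell by 0.87 and the glycine decarboxylase GLDC by 0.64. Other targets of ATF4, the factor that activates several of these genes under amino acid stress, formed a list with calls near the 15.5% of all genes, and ATF4 itself was at 9.22, 9.06 and 9.15 in control and 9.02, 9.02 and 9.14 in PD (limma adjusted p = 0.599). Here 1 of 15 measured genes rose and 1 fell (median difference -0.15).

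Genes of nuclear import and export fell as a group. The median difference of the 43 measured members was -0.35, with 0 risen and 27 fallen (62.8%), against 8.63% fallen of all genes. All 43 members had a difference below 0. The importin IPO4 went from 8.04, 7.81 and 7.84 to 6.97, 7.14 and 7.21, the pore component SEH1L fell by 0.72 and the export receptor XPO4 by 0.72. Splicing factors moved the same way. Of 45 measured members 0 rose and 19 fell (42.2%), with a median difference of -0.29. The number that fell was 12 without PD replicate 3. SRSF1, a splicing regulator that many genes need, went from 11.05, 11.24 and 11.15 to 10.51, 10.36 and 10.34, and SRSF2 fell by 0.67. Chaperones, which fold new proteins, fell in 12 cases. In this list of 24 measured genes, 0 rose and 12 fell (50%, median difference -0.36). Median control levels were 8.64 for nuclear transport, 9.16 for splicing and 8.78 for chaperones, in the range of the highest bin of mean level. In that bin 639 of 2977 genes fell. HSPA4L went from 9.16, 9.48 and 9.31 to 8.21, 8.39 and 8.19 and HSPH1, a nucleotide exchange factor for HSP70, fell by 0.86, with the HSP70 co-chaperone BAG2 at -0.91. The secretory pathway, on which antibody-making cells depend, was a further list. The list counted 1 risen and 12 fallen genes (26.1%) among 46 measured, at a median of -0.075. Its median control level was 9.05, and in the highest of the 5 bins of mean level 639 of 2977 genes fell. Genes that fell numbered 7 in the 6 compared arrays alone, without PD replicate 2 or without PD replicate 3 and 6 when every row was tested, without control replicate 1, without control replicate 2, without control replicate 3 or without PD replicate 1. SEL1L, the adaptor that passes misfolded proteins to degradation, fell from 9.96, 10.04 and 9.99 to 9.17, 8.99 and 8.98, and ERO1A, an oxidase of disulfide bonds, by 0.55. CREB3L2, a membrane-bound factor that enlarges the secretory pathway, rose by 0.84.

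Genes of cholesterol synthesis fell in part. Of its 20 measured genes, 0 rose, 10 fell and the median difference was -0.31. SQLE (-0.84), the squalene epoxidase, and HMGCS1 (-0.83) were lowest, and INSIG1, which holds the sterol sensor in the endoplasmic reticulum, fell by 0.66. SREBF2, which encodes the main activator of this pathway, was at 8.48, 8.43 and 8.49 in control and 8.44, 8.45 and 8.36 in PD (difference -0.049, limma adjusted p = 0.789). The sterol element, searched as CACCCCAC, was found in 1 of 18 promoters of this list (5.56%) and in 2.74% of all. Fatty acid genes were split. Among 30 measured genes, 5 rose (16.7%) and 10 fell (33.3%), against 6.84% and 8.63% of all genes, and the median difference was -0.17. The count of genes that rose became 3 without control replicate 1, without control replicate 2 or without PD replicate 3. The number that fell was 6 when every row was tested. FASN, the fatty acid synthase, went from 8.54, 8.41 and 8.80 to 7.496, 7.57 and 7.57, ACACA, which makes its substrate, fell by 0.76, and the triglyceride enzyme DGAT2 fell by 0.91. FAR2, a reductase that makes fatty alcohols, rose from 6.81, 6.96 and 6.85 to 9.26, 9.32 and 9.18, 5.21-fold higher, and the mitochondrial carnitine enzyme CPT2 by 0.42.

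The list of hypoxia-factor and glucose genes held few calls. Here 2 of 22 measured genes rose (9.09%) and 4 fell (18.2%), against 6.84% and 8.63% of all genes (median difference -0.14). EPAS1, which encodes the hypoxia factor HIF-2 alpha, rose from 6.29, 6.41 and 6.67 to 7.75, 7.58 and 7.83. The hypoxia targets ANKRD37, from 6.26, 6.48 and 6.28 to 4.79, 4.88 and 4.69, and VEGFA, from 6.39, 6.67 and 6.49 to 5.54, 5.65 and 5.69, fell. Hexokinase HK2, the first step of glycolysis, fell by 0.78. Among redox genes, SRXN1, which repairs oxidised peroxiredoxins, fell by 0.92 and the pentose phosphate enzyme TKT by 0.53, while the glutathione peroxidase GPX1 rose by 0.62. The median difference of the 31 measured members was -0.073, with 3 risen (9.68%) and 6 fallen (19.4%). With the arrays quantile normalized once more the number that rose was 5.

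Some genes that promote and some that block cell death rose. Of 23 measured BCL2 family members 5 rose (21.7%) and 1 fell (4.35%), against 6.84% and 8.63% of all genes. The median difference was 0.024, and the sign of the median changed between settings. Genes that rose numbered 3 in the 6 compared arrays alone, when every row was tested, without control replicate 2, without control replicate 3 or without PD replicate 3. BMF, a BH3-only protein that promotes apoptosis, went from 7.23, 7.13 and 7.47 to 9.30, 8.99 and 9.28, and the mitophagy receptor BNIP3L from 8.18, 8.60 and 8.20 to 9.36, 8.97 and 9.04. BID, which links death receptors to mitochondria, fell by 0.43. The BH3-only genes BCL2L11 (-0.32, limma adjusted p = 0.0599) and PMAIP1 (-0.30, limma adjusted p = 0.0988) were lower in PD without passing the test. Among the 11 measured genes of death receptor signalling and caspase inhibition, the 4 that rose were CFLAR, RIPK3, BIRC2 and TRADD. CFLAR, which blocks caspase-8, went from 6.44, 6.47 and 7.07 to 7.75, 7.70 and 7.64. RIPK3, the kinase of necroptosis, rose by 0.78 and the inhibitor of apoptosis BIRC2 by 0.51. MAP3K5, which encodes the stress kinase ASK1 upstream of JNK and p38, rose from 7.35, 7.30 and 7.31 to 9.08, 9.17 and 8.84, 3.27-fold higher. Of the p53 targets, TP53I3 (0.81) and CCNG2 (0.80), a cyclin of resting cells, rose. In this list of 20 measured genes, 5 rose (25%) and 2 fell (10%), with a median difference of 0.22. The count of genes that rose became 2 when every row was tested and 3 without control replicate 1, without control replicate 3 or without PD replicate 3.

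Lysosomal genes rose in part. The list counted 8 risen (25%) and 2 fallen genes (6.25%) among 32 measured, against 6.84% and 8.63% of all genes, at a median of 0.14. CD68, a glycoprotein of the lysosomal membrane, went from 8.61, 8.61 and 8.62 to 10.36, 10.11 and 10.26, 3.09-fold higher, and the cysteine proteases CTSO (0.88) and CTSS (0.84) rose. ARSB, a sulfatase, fell by 0.72. CD68 is also used as a macrophage marker, and the other 9 measured myeloid markers did not pass the test. Autophagy genes were a further list. Of its 34 measured genes, 7 rose (20.6%), 1 fell (2.94%) and the median difference was 0.091. OPTN, an autophagy receptor, rose by 0.63 and ATG16L2 by 0.49. The antigen-processing peptidase ERAP2 rose from 8.01, 7.98 and 8.12 to 9.16, 9.09 and 8.97, and B2M, the light chain of MHC class I, had a difference of 0.033 (limma adjusted p = 0.875), or 0.36 (0.115) when its rows are averaged.

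Several cell surface proteins were among the strongest changes. CYSLTR1, a receptor of cysteinyl leukotrienes, went from 7.45, 7.71 and 7.35 to 10.19, 10.31 and 10.09, 6.47-fold higher. ALOX5AP, which hands arachidonic acid to the enzyme that starts leukotriene synthesis, rose from 6.82, 6.92 and 6.40 to 8.42, 8.38 and 8.14. ALOX5, that enzyme, had a difference of 0.037 (limma adjusted p = 0.928), and LTC4S, which makes the ligand of CYSLTR1, 0.11 (limma adjusted p = 0.612). Among 41 measured genes, 3 rose (7.32%) and 2 fell (4.88%), against 6.84% and 8.63% of all genes. The median difference was 0.038, and the sign of the median changed between settings. Among the surface antigens the glycoprotein CD109 went from 5.07, 5.09 and 5.18 to 7.81, 7.36 and 7.62 (difference 2.48, and 1.39 when its rows are averaged) and MME, the endopeptidase CD10 of early B cells, from 5.05, 5.29 and 5.11 to 7.62, 7.21 and 7.43. The immunotherapy target SLAMF7 fell by 0.48, the TNF family ligand CD70 by 0.62 and the NKG2D ligand MICB by 0.56. CD38, the antigen of daratumumab, had a difference of -0.28 (limma adjusted p = 0.0743). CD38 passed the test in 2 of 16 alternatives, 1 of them without PD replicate 1 (limma adjusted p = 0.0471). Here 6 of 35 measured genes rose (17.1%) and 5 fell (14.3%), against 6.84% and 8.63% of all genes. The median difference of these antigens was 0.053, and the sign of the median changed between settings. ADAM23, an adhesion protein of the disintegrin family, fell from 6.68, 6.66 and 6.72 to 5.17, 4.97 and 5.34. Of the B cell signalling genes, the adaptor BLNK rose from 8.12, 8.09 and 8.08 to 9.28, 9.31 and 9.40 and the complement receptor CR2 fell from 6.87, 7.09 and 6.95 to 5.97, 5.56 and 5.69.

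The Wnt pathway list held changes at single members. DKK1, a secreted Wnt inhibitor that blocks bone formation in myeloma, went from 4.599, 4.49 and 4.66 to 6.91, 6.97 and 7.12, 5.35-fold higher, and the receptor FZD4 from 5.18, 5.03 and 4.98 to 6.57, 6.38 and 6.66. ZNRF3, a ligase that removes Wnt receptors, fell by 0.76. Of the 38 measured members 4 rose and 4 fell (10.5% each), near the 6.84% and 8.63% of all genes. The median difference was 0.0095, and the sign of the median changed between settings. In the MAP kinase list the small GTPase RRAS rose from 6.29, 6.43 and 5.91 to 9.02, 8.69 and 8.97, 6.43-fold higher, and NF1, which turns RAS off, by 0.84, whereas the ERK phosphatase DUSP7 fell by 0.93. Of 33 measured members 4 rose and 4 fell (12.1% each), with a median difference of -0.023. The clock genes PER1 and PER2 moved in opposite directions. PER1, from 7.30, 7.49 and 7.52 to 8.05, 8.08 and 8.15, rose, and PER2, from 7.80, 7.99 and 8.13 to 7.27, 7.10 and 7.12, fell. In this list of 14 measured genes, 3 rose and 3 fell (21.4% each, median difference 0.01), and the sign of the median changed between settings. The Schlafen gene SLFN5, a nuclear member of an interferon-responsive family, rose from 6.31, 6.17 and 6.53 to 8.404, 7.80 and 7.94, and none of the other 6 measured Schlafen genes passed the test. Of the chromatin modifiers, UHRF1, which guides maintenance of DNA methylation, fell by 0.81 and the arginine methyltransferase PRMT1 by 0.82, while the deacetylase HDAC5 rose by 0.65. The list counted 7 risen and 7 fallen genes (12.7% each) among 55 measured, at a median of -0.077. Over all genes 6.84% rose and 8.63% fell. The number that rose was 3 without control replicate 2 and 4 without PD replicate 1. Genes that fell numbered 12 among genes above the median mean.

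Further genes with large changes belong to none of the lists. ANXA4, a calcium-dependent membrane-binding protein, went from 6.51, 6.34 and 6.29 to 8.12, 7.94 and 8.09, and MILR1, an inhibitory receptor of mast cells, from 5.00, 4.47 and 4.57 to 6.23, 6.63 and 5.99. The calcium channel ORAI3 (1.498), the anthrax toxin receptor ANTXR1 (1.51) and the divergent transcript GAS6-DT (1.73) also rose. CBLN2, a secreted synaptic organiser, fell from 8.41, 8.91 and 8.70 to 6.53, 6.39 and 6.41, 4.69-fold lower. CABLES1, a cyclin-dependent kinase adaptor, fell from 9.59, 9.61 and 9.59 to 8.44, 8.18 and 8.11, and the microtubule-binding NAV1 from 7.38, 7.58 and 7.99 to 6.35, 6.29 and 6.39 (difference -1.31, and -0.76 when its rows are averaged). EIF5A2 (-1.22), a translation factor isoform, the kinase STK38L (-1.19), the polycomb protein SCML2 (-1.11) and the glutamate receptor partner NETO2 (-1.09) fell too. PARM1, a mucin-like protein, was the most abundant of these in control cells at 10.63, 10.84 and 10.85 and fell to 9.82, 9.56 and 9.73.

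The response was set beside the difference between the FPD and F arrays, which share no array with it. If the F group received dexamethasone as its treatment label gives, FPD and F would differ by pomalidomide alone. The levels of glucocorticoid targets in the F arrays were near those of control: DDIT4 was at 5.97 ± 0.11 in F and 5.99 ± 0.08 in control, FKBP5 at 5.74 ± 0.30 and 5.57 ± 0.03, and PER1 at 7.41 ± 0.24 and 7.44 ± 0.12 (mean log2 ± SD, n = 3). FPD against F gave 1117 genes higher and 988 lower, 14.1% of the genes tested (7.5% higher and 6.64% lower). Of the 1018 genes that rose in PD, 985 had the same sign there (96.8%) and 711 were called again in that direction (69.8%), or 63.7% of the 1117. Of the 1284 that fell, 1255 had the same sign (97.7%) and 717 were called again (55.8%), or 72.6% of the 988. No gene was called in opposite directions. All 92 genes that rose at least 2-fold were called again, as were 47 of the 51 that fell at least 2-fold. DDIT4 rose by 4.65 in FPD, CYSLTR1 by 2.38 and MAP3K5 by 1.84, IRF4 fell by 1.12 and E2F1 by 0.82. Of the DNA replication genes 16 of 28 fell there and of the ribosome biogenesis genes 53 of 71. The test of the difference between the 2 responses called 0 genes with limma, where 833 of 14884 had an unadjusted p under 0.05. A share of 0.05 of the genes would reach that p without any difference, so the 833 are not read as genes that respond differently.

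**Figure D5:**
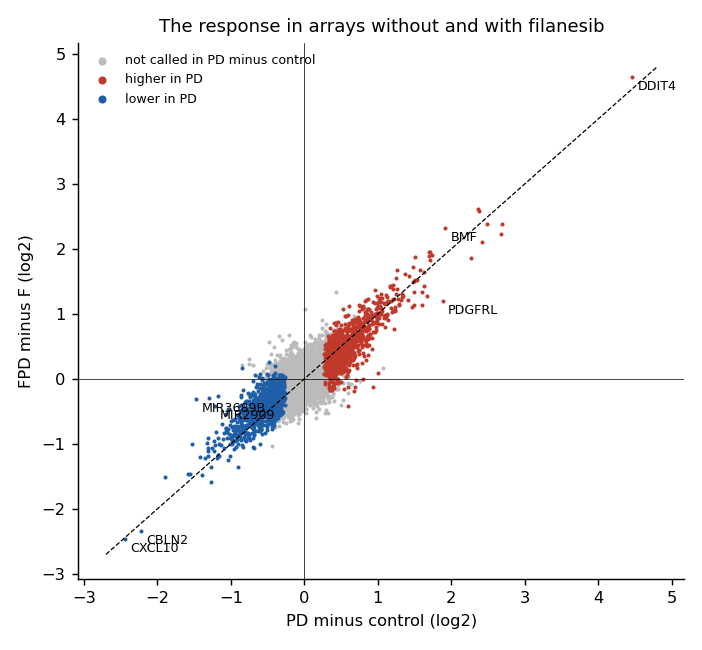
FPD minus F (log2, vertical axis) against PD minus control (log2, horizontal axis), with 1 point per gene; red genes rose and blue genes fell in PD. The dashed line marks equal differences, along which DDIT4 lies at 4.46 and 4.65, while MIR3689B lies off it at -1.47 and -0.31.

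The 4 large falls that were not called again were all microRNA loci, named here after their values were seen. They were MIR3689B, MIR3689E, MIR3689A and MIR2909. In RefSeq (GRCh38.p14) the 3 MIR3689 loci lie on chromosome 9 and give the same mature 5p sequence, and MIR2909 lies on chromosome 17. Their mature sequences are shown with the seed, bases 2 to 8, in capitals.
hsa-miR-3689b-5p: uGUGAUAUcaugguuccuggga
hsa-miR-2909: gUUAGGGCcaacaucucuugg
MIR3689B was at 7.30, 7.34 and 8.87 in control and at 6.24, 6.45 and 6.41 in PD, MIR3689E at 5.48, 5.49 and 7.14 and 4.56, 4.98 and 4.67, and MIR3689A at 7.83, 7.69 and 9.10 and 7.15, 6.82 and 7.10. Control replicate 3 was the highest array at all 3 loci, by more than 1 on the log2 scale. Without it the differences were -0.95 for MIR3689B, -0.75 for MIR3689E and -0.73 for MIR3689A, against -1.47, -1.30 and -1.18 with it. MIR3689E lost its call when every row was tested, without control replicate 3 and without PD replicate 1 or 3, with limma adjusted p from 0.0665 to 0.11. MIR2909 was at 8.21, 8.10 and 8.62 in control and 7.39, 6.72 and 7.18 in PD. MIR142, the locus of an abundant haematopoietic microRNA, fell in both comparisons, by 1.09 in PD and 1.06 in FPD. Its 2 mature arms carry different seeds.
hsa-miR-142-3p: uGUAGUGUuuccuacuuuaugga
hsa-miR-142-5p: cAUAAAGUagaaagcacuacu
The arrays measure the RNA of these loci without telling mature from precursor forms.

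By class of transcript, 914 of 11916 protein-coding genes rose (7.67%) and 1230 fell (10.3%). Among 1398 long non-coding RNAs 76 rose (5.44%) and 17 fell (1.22%), and among 1072 microRNA loci 12 rose (1.12%) and 20 fell (1.87%). The control level was lower in the non-coding classes, with medians of 3.97 for long non-coding RNAs and 3.37 for microRNA loci against 5.86 for protein-coding genes.

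Called genes were also set by their order along the chromosomes. Of 14859 pairs of adjacent tested genes, both rose in 102 (0.686%), both fell in 133 (0.895%) and the 2 members moved in opposite directions in 169 (1.14%). The longest run was of 6 genes on chromosome 1 from GRHL3 to NCMAP, with differences of 0.33 to 0.74. It was broken in several settings. STPG1 was no longer called without control replicate 3 (limma adjusted p = 0.0559) or without PD replicate 1 (0.0603). NIPAL3 lost its call in the 6 compared arrays alone, with the mean of its rows and without PD replicate 1, with limma adjusted p from 0.0515 to 0.189. RCAN3AS lost its call in the 6 compared arrays alone, with each array centred on its median, when every row was tested, with the replicate block, without control replicate 2 or 3 and without PD replicate 2 or 3, with limma adjusted p from 0.0524 to 0.169. The difference of NIPAL3 was 0.19 when its rows are averaged. On chromosome 13 a run held GAS6-AS1, GAS6, GAS6-DT and SWINGN, at 0.60, 0.49, 1.73 and 0.51. GAS6-AS1 lost its call in the 6 compared arrays alone, with the mean of its rows, when every row was tested, without control replicate 2 or 3 and without PD replicate 3, with limma adjusted p from 0.0633 to 0.109. Its difference was 0.31 without PD replicate 3 and 0.35 when its rows are averaged. On chromosome 4 a run of 4 fell, with ANKRD37 at -1.56, UFSP2 at -0.45, CCDC110 at -1.27 and PDLIM3 at -0.89. DDIT4 on chromosome 10 followed ASCC1 and ANAPC16, which rose by 0.78 and 0.59. The runs were picked after their values were seen, and transcripts of overlapping genes can share probes.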

How the data were processed

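RNA of 12 samples of MM.1S cells, 3 in each of 4 groups, was measured on Affymetrix arrays, and the groups and doses were taken from the labels. The deposited values are log2 signals for which the authors used RMA (its standard steps are background correction, quantile normalization and probe summaries) in Affymetrix Expression Console, per the submitters' processing notes. No batch is labelled. For tool versions and genome build the entry is: not given in the sources used here. RMA compresses low signals, so it understates folds at low levels. Detection calls were not used, so that values near the array medians cannot be told from background.

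Names came from the platform annotation, with symbols from RefSeq (GRCh38.p14). Of 53617 rows, 37519 had no symbol and 0 had several. For the 779 genes with more than 1 row, the row with the highest mean stood for the gene, and no filter on level was applied. With limma 3.58.1 (R 4.3.3), group means were fitted over the 12 arrays (8 residual degrees of freedom per gene), with two-sided tests and Benjamini-Hochberg adjustment over 14884 genes. FPD minus F and the difference of the 2 responses came from the same fit. The precision is limited by 3 arrays per group. Tables were made with pandas 2.3.3 in Python 3.11.15, and the fit was tested on simulated data.

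The members, the 48 gene lists and 5 marker lists, and the rules were chosen with earlier results of these data known. Measured members are those with a row that carried a symbol, and many lists were covered only in part. Measured were 71 of 96 listed genes of ribosome biogenesis, 15 of 77 of oxidative phosphorylation and 3 of 49 of the proteasome. Named genes are the 30 highest and 30 lowest differences among called genes with groups that do not overlap (immunoglobulin, T cell receptor, small RNA, LOC, LINC, orf and antisense symbols left out), each list's 3 highest and 3 lowest members, and 37 genes chosen by name, of which 28 were measured and the others are not analysed here. ALOX5, ANAPC16, ASCC1, B2M, DUSP1, GAS6, GAS6-AS1, GINS2, GRHL3, HERC6, INSR, ISG15, LTC4S, MCM10, MCM2, MCM3, MCM4, MCM5, MCM7, MIR142, MIR2909, MIR3689A, MIR3689B, MIR3689E, MX2, MZB1, NCMAP, NIPAL3, NOP2, PCNA, PDLIM3, RCAN3AS, RIGI, SMAP2, SP100, STOM, STPG1, SWINGN, TICRR, TRADD and UFSP2 were named outside this rule, after their values were seen. Alternatives were other scalings, row choices, filters, weights, variance priors, a minimum fold, the replicate block, the compared arrays alone, and each array left out.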

Additional observations from a re-analysis of the deposited data

Results flagged for a closer look

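Among the 37519 rows of the table without a gene symbol, which entered no comparison of genes, 1543 differed between PD and control at an adjusted p under 0.05 (limma, over all 53617 rows). Of these 654 were higher and 889 lower in PD, and 241 differed at least 2-fold. They were 4.11% of the rows without a symbol, against 10.2% of the rows with 1 symbol under the same adjustment. They were singled out because they carry a difference from the control arrays in rows the report does not use. Row 16889636 was higher in PD by 2.60 (from 4.78 to 7.38, means of 3 arrays) and row 16889741 by 2.50. Row 16764097 was lower by 2.47 (from 6.98 to 4.51) and row 17104673 by 2.38. Their identity is not given in the sources used here. No group of 4 or more arrays exists in this comparison, so a single array was not tested as an outlier.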

How the results depend on the processing

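The number of genes called in PD against control stayed within 1.5 times of the reported 2302 under all settings run but one. When a change larger than 1.2-fold was required (limma's treat), 581 genes were called, 287 higher and 294 lower in PD, all of them among the 2302. Leaving out 1 array at a time gave between 1799 and 1990 genes, and between 1428 and 1978 in FPD against F. A fit with the replicate number as a block called 2277 genes (2057 in FPD against F), of which 2177 were shared with the report. Control and PD arrays of the same number did not deviate together, with correlations of -0.26, -0.0056 and -0.068. With 3 arrays per group this cannot decide whether the numbers pair the samples, which the labels do not say. The difference between the 2 responses called 0 genes with limma under every setting run, where between 469 and 2852 genes or rows had an unadjusted p under 0.05. The 469 came from the genes above the median mean and the 2852 from all 53617 rows, and a share of 0.05 would pass without any difference. Of the 53 lists, 18 had a median whose sign changed with some setting. Of 213 named genes followed through the alternatives, which leave out BCL2L11 and PMAIP1, 194 were called. Of these, 143 kept the call under all of the 16 alternatives in which they were tested, the 1.2-fold minimum included. None of the called genes changed sign. Among named genes that were not called, ALOX5 reached -0.097 without control replicate 3, -0.050 without PD replicate 1 and -0.073 without PD replicate 2, DUSP1 -0.0078 without control replicate 3, ISG15 -0.0047 without PD replicate 3 (the highest values with 1 array left out were 0.24, 0.23 and 0.077), SDC1 0.012 and SREBF2 0.017 after quantile normalization once more. On simulated data with this design, 6% of genes changed by a log2 of 0.3 were recovered and 60% at 0.5. At 1 the share was 92% and at 2 it was 100%. Far fewer genes were changed there, with 134 calls against the 2302 reported. The adjustment is stricter when fewer genes change, so these shares need not hold for these data. Small changes can go uncalled with 3 arrays per group. RMA brings the arrays to a common distribution, and a change in total RNA per cell would not show.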

Other observations

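Further lists covered energy metabolism and protein synthesis beyond the ribosome, beside 15.5% of all genes called. For oxidative phosphorylation, 0 of 15 measured members rose and 1 fell, at a median difference of -0.016, and the sign of the median changed between settings. The subunit that fell was UQCRH of complex III. UQCRH lost its call in the 6 compared arrays alone, after quantile normalization once more, when every row was tested, with array weights, without control replicate 1, 2 or 3 and without PD replicate 1 or 3, with limma adjusted p from 0.0503 to 0.162. For the tricarboxylic acid cycle, 1 of 15 measured members rose and 4 fell, at a median difference of -0.24. The count of genes that fell became 2 when every row was tested, without control replicate 2 or without PD replicate 2. IDH3A, a subunit of isocitrate dehydrogenase, fell by 0.65 and DLAT of the pyruvate dehydrogenase complex by 0.55. For translation initiation and elongation, 2 of 18 measured members rose and 1 fell, at a median difference of -0.12. The number that fell was 6 among genes above the median mean. PDCD4, which inhibits the helicase eIF4A, rose from 8.20, 8.52 and 8.18 to 9.09, 8.92 and 8.80.

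For integrins and adhesion, 8 of 24 measured members rose (33.3%) and 3 fell (12.5%), against 6.84% and 8.63% of all genes. The median difference was 0.069, and the sign of the median changed between settings. Genes that rose numbered 5 in the 6 compared arrays alone, when every row was tested, without control replicate 1, without control replicate 2, without PD replicate 2 or without PD replicate 3. NCAM1, the adhesion molecule CD56 of myeloma cells, rose by 0.56 and the hyaluronan receptor CD44 fell by 0.44. For antigen presentation, 2 of 10 measured members rose and 0 fell, at a median difference of 0.057. For the list of metallothioneins, zinc-binding proteins that glucocorticoids and metals can induce, together with their regulator MTF1 and zinc transporters, 0 of 11 measured members rose and 2 fell, at a median difference of -0.066, and the sign of the median changed between settings. The 2 that fell were MT2A (-0.51) and MT4 (-0.33). MT2A lost its call when every row was tested, without control replicate 1 or 2 and without PD replicate 1, 2 or 3, with limma adjusted p from 0.0515 to 0.139. MT4 lost its call in the 6 compared arrays alone, after quantile normalization once more, when every row was tested, with the replicate block, with array weights, without control replicate 1, 2 or 3 and without PD replicate 1 or 2, with limma adjusted p from 0.0504 to 0.204. For RNA polymerase II, 0 of 4 measured members rose and 2 fell, at a median difference of -0.24. For the proteasome, 0 of 3 measured members rose and 2 fell, at a median difference of -0.38. ADRM1, a ubiquitin receptor of the proteasome, fell by 0.41. For stromal and epithelial markers, 1 of 8 measured members rose and 0 fell, at a median difference of 0.053, and the sign of the median changed between settings. The gene that rose was PECAM1 (0.41). PECAM1 lost its call in the 6 compared arrays alone, after quantile normalization once more, with each array centred on its median, when every row was tested, with the replicate block, with array weights, with a trended variance prior, without control replicate 1, 2 or 3 and without PD replicate 2 or 3, with limma adjusted p from 0.0514 to 0.208.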
